A study of Mus musculus with 8 samples.

Results

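The 9 genes described here are Foxo1, Foxo3, Foxo4, Foxp1, Klf2, Klf3, Btg1, Btg2 and Bach2, which were taken by symbol from the 24506 genes of the deposited count table. All 9 passed the filter on low counts, which kept 13775 genes for testing. RNA was sequenced in bulk from 8 libraries of mouse T cell progenitors, 2 in each of 4 groups. Late sgStat5 cells and late control cells were CD25+ and positive for the Bcl11b-mCherry reporter, past commitment to the T lineage, and early sgStat5 cells and early control cells were CD25+ and negative for it, before commitment. The sgStat5 cells had received 3 guides against Stat5a and 3 against Stat5b by retrovirus, and the control cells had received control guides, whose target the labels do not name. All 4 groups came from bone marrow progenitors of mice that carried Cas9, a Bcl2 transgene and the Bcl11b-mCherry allele on the B6 background. All were cultured for 6 days on OP9-DLL1 stromal cells, a line that supplies a Notch ligand, with IL-7 and Flt3l at 10 ng/ml each, and were sorted as negative for lineage markers. The labels name neither the age of the mice nor the origin of the replicates. The design text describes the late cells as positive for mCherry and, in the same phrase, as negative for the reporter, and the late gate is taken here as mCherry-positive. The comparisons ask how the genes differed between late and early cells and between sgStat5 and control cells in each gate.

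Quiescence in lymphocytes is an actively kept state of low growth and no division. FOXO transcription factors act in it while AKT, switched on through PI3K downstream of cytokine and antigen receptors, is low, because phosphorylation by AKT holds them out of the nucleus. In T cells FOXO1 drives Il7r, Klf2 and genes of lymphocyte homing, FOXP1 and KLF2 help to keep naive T cells at rest, BTG1 and BTG2 promote the shortening of poly(A) tails of messenger RNAs, and BACH2 represses effector genes. STAT5 is the main transcription factor downstream of IL-7, the cytokine in which these cells were grown.

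The libraries held between 22146490 and 31209177 assigned reads. In sgStat5 cells Stat5a fell by 55.0% in the late gate and fell by 59.0% in the early gate, and Stat5b fell by 45.9% in the late gate and fell by 45.0% in the early gate (edgeR adjusted p = 0.00451, 0.0112, 0.00876 and 0.0280), so transcripts of both targets were still present. Libraries with the same replicate number stood apart from those with the other: Xist, the RNA of the inactive X chromosome, had at most 0.359 CPM (reads scaled to the size of the library) in the 4 libraries numbered 1 and at least 1388 CPM in the 4 numbered 2. Replicates of a group differed beyond sampling noise in all 4 groups, with a chi-square per degree of freedom of 22.7 to 62.0. The labels do not say whether replicates were separate cultures or animals, or whether late and early libraries with 1 guide set and number came from 1 culture. P-values therefore measure the spread between these samples. That spread holds the Xist difference, which cannot be told apart from the replicate number, and the rest of it may be technical. All 12 T progenitor markers, Il2ra, Thy1 and Notch1 among them, were detected in every library, while the B cell genes Ms4a1 and Pax5 had 0 reads and 1 read over all libraries. The 8 B cell markers summed to 6.77 to 17.1 CPM, and the 5 listed markers of later T cells found in the table to 9.10 to 19.4 CPM.

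Promoter sequences were looked up in RefSeq for build GRCm38.p6, and 8 of the 9 genes had at least 1 entry, 10 promoters in all, with Foxo4 not among them. The 250 bases upstream of the start site were searched on both strands for GTAAACA, the core of the motif bound by FOXO proteins, TTCNNNGAA, the palindrome bound by STAT proteins, GGGTGTG, a KLF motif, and TGAGTCA, the core of BACH motifs. FOXO letters were found in 1 of the 10 promoters, that of Btg1, against 3.17% of 32851 mouse promoters of this length, and STAT letters in 1 of 10, that of Bach2, against 7.02%. KLF and BACH letters were in 0 of the 10, against 6.93% and 4.46%. Printed below are the Foxo1 promoter, because Foxo1 had the largest late over early fold of the 9 genes in sgStat5 cells, and the 2 promoters with a match, with the matched bases in capitals. All 3 lie on the plus strand and are written 5′ to 3′. The Btg1 match is GTAAACA read on the minus strand, 204 to 198 bases upstream of the start site, and the Bach2 match lies 140 to 132 bases upstream.
Foxo1, chr3:52268087-52268336: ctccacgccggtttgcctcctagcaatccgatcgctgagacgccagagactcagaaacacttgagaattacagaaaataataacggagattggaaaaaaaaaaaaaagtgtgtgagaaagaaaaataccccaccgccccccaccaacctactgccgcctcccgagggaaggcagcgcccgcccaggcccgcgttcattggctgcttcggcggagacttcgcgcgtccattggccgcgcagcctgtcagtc
Btg1, chr10:96616751-96617000: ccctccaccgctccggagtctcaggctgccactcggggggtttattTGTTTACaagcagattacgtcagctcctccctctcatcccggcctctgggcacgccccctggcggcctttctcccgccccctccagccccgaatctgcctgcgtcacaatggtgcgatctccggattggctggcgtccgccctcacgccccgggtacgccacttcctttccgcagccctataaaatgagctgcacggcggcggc
Bach2, chr4:32417185-32417434: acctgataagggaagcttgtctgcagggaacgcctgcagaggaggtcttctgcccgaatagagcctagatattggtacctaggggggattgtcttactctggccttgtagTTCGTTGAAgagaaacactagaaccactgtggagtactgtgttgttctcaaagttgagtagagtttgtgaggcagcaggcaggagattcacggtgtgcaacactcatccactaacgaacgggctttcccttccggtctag
A match says only that these letters are present in the window, and none of the libraries measured binding.

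Levels were compared between genes per length, as the authors' FPKM (fragments normalised for transcript length and sequencing depth). In late sgStat5 cells Btg1 was the highest of the 9 at 31.0 ± 9.10 FPKM, followed by Klf3 at 25.8 ± 5.78, Foxo3 at 17.1 ± 4.01, Btg2 at 14.2 ± 7.21 and Foxp1 at 12.8 ± 0.178 (SD, n = 2 each). The spreads of these neighbours in the order overlapped. Foxo4 followed with 8.51 and 5.96 FPKM in the 2 libraries. Foxo1 stood at 4.21 ± 0.730, Bach2 at 2.34 ± 0.148 and Klf2 at 0.622 ± 0.177 FPKM in the same cells. In early control cells the order was another one, with Foxo3 at 12.1 ± 0.743, Klf3 at 11.2 ± 3.02, Foxp1 at 10.9 ± 0.860 and Btg1 at 8.04 ± 0.753 FPKM at the top, and with Foxo1 at 1.01 ± 0.216, Bach2 at 0.984 ± 0.261 and Klf2 at 0.872 ± 0.281 FPKM at the bottom. Klf2, which encodes a factor for homing and quiescence in naive T cells, stood at 0.622 to 1.04 FPKM in the 4 groups and had 34 to 83 reads per library. The FPKM of Foxp1 rest on another transcript than its counts, of 6615 bases against 7548, so its rank is less certain than the others.

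**Figure D1:**
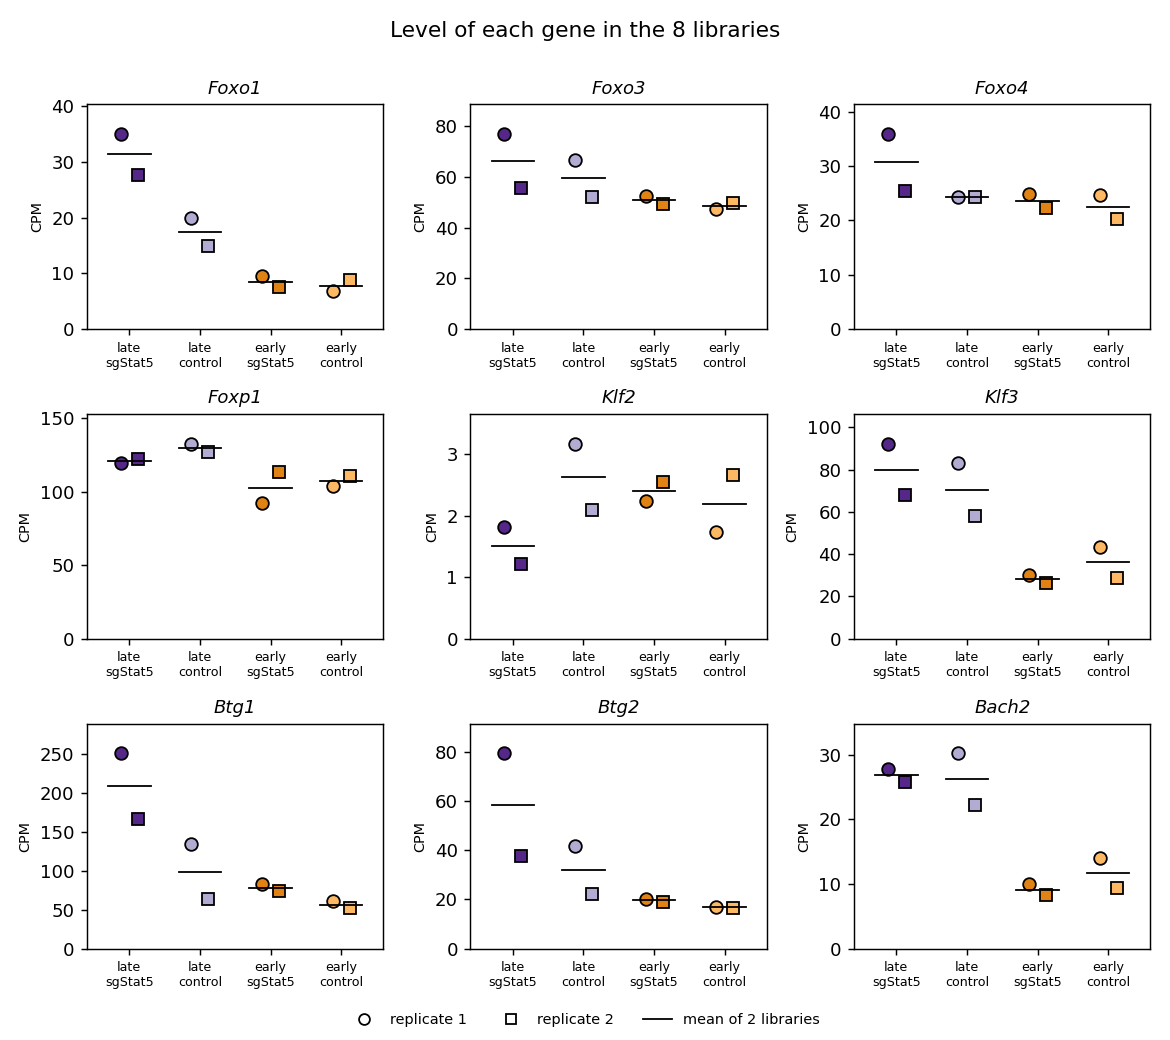
Level of each of the 9 genes in CPM (vertical axes, from 0, scaled per gene) in the 8 libraries; circles are replicate 1, squares replicate 2 and bars the mean of 2. Foxo1 in late sgStat5 cells, at 35.1 and 27.7 CPM, lies above all other libraries.

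Foxo1 and Bach2 rose in late over early sgStat5 cells, and with the replicate number as a block, a fit that takes out what same-numbered libraries share, Klf3, Btg1 and Btg2 passed there too (unblocked adjusted p = 0.0590, 0.0851 and 0.0894). In control cells none of the 9 passed without the block, and Foxo1, Klf3, Btg1 and Bach2 passed with it. Neither fit called Foxo3, Foxo4, Foxp1 or Klf2 in either kind of cell. FOXO1 is the FOXO protein with the best known part in lymphocyte development, and its gene lies on chromosome 3 at 52268337 to 52350109 (mm10, plus strand). Foxo1 had 35.1 and 27.7 CPM in late sgStat5 cells, against 9.44 and 7.50 CPM in early sgStat5 cells. Its levels in control cells were 20.0 and 14.8 CPM in the late gate, against 6.73 and 8.84 CPM in the early gate. Every late library was above every early one in both kinds of cells. In sgStat5 cells Foxo1 rose 3.71-fold in the late gate (log2 fold change 1.89, SE 0.25, edgeR adjusted p = 0.0482, adjusted over all tested genes). In control cells the log2 fold change was 1.16 (SE 0.24, edgeR adjusted p = 0.189), and it passed with the replicate block (1.13, SE 0.21, adjusted p = 0.0141).

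Foxo3 (chromosome 10, 42185786 to 42276742, minus strand), the highest of the 3 FOXO genes in FPKM, did not pass in either kind of cell. It had 77.0 and 55.7 CPM in late sgStat5 cells, against 52.6 and 49.4 CPM in early sgStat5 cells, a log2 fold change of 0.38 (SE 0.19, edgeR adjusted p = 0.267). In control cells it had 66.8 and 51.9 CPM in the late gate, against 47.2 and 49.8 CPM in the early gate (0.29, SE 0.19, adjusted p = 0.508). Foxo4 (chromosome X, 101254528 to 101260873, plus strand), another FOXO gene whose protein AKT controls, had 36.0 and 25.5 CPM in late sgStat5 cells, against 24.9 and 22.3 CPM in early sgStat5 cells. Its log2 fold change was 0.38 (SE 0.19, edgeR adjusted p = 0.275). In control cells it had 24.3 and 24.4 CPM in the late gate, against 24.6 and 20.2 CPM in the early gate (0.12, SE 0.19, adjusted p = 0.816). In sgStat5 cells the early and late libraries of both genes still did not overlap, though replicate 2 was close in each. As a description, with no test, Foxo1 made up 14.2% and 15.4% of the summed FPKM of Foxo1, Foxo3 and Foxo4 in late sgStat5 libraries and 10.5% and 9.43% in late control libraries. Its share was 6.11% and 5.29% in early sgStat5 libraries and 4.78% and 6.30% in early control libraries. Foxo3 was the larger part of the sum in every library, at 59.6% to 68.4%.

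**Figure D2:**
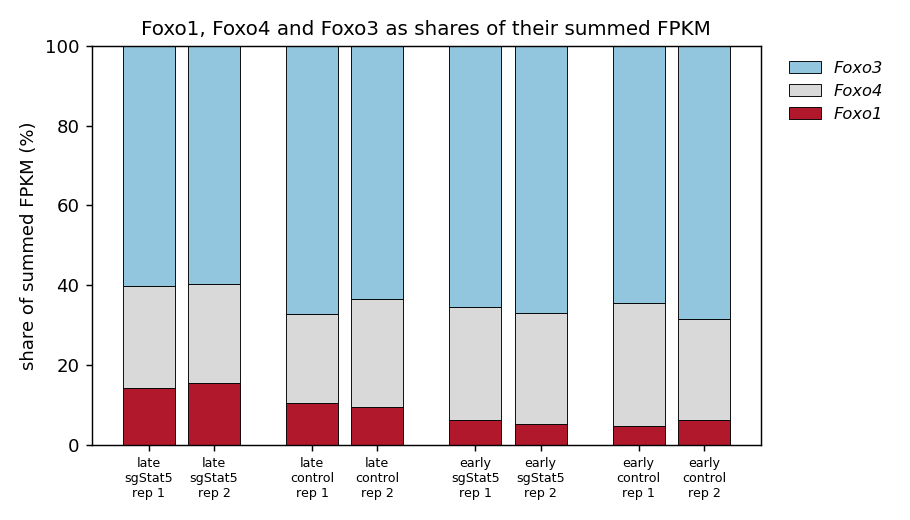
Share of Foxo1, Foxo4 and Foxo3 in their summed FPKM (vertical axis, percent) in each of the 8 libraries (bars). The Foxo1 segment is at 14.2% and 15.4% in late sgStat5 libraries and at most 6.30% in early ones.

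Foxp1 (chromosome 6, 98925342 to 99520993, minus strand) encodes a forkhead repressor that holds naive T cells at rest. It had 120 and 122 CPM in late sgStat5 cells, against 92.3 and 113 CPM in early sgStat5 cells, a log2 fold change of 0.23 (SE 0.11, edgeR adjusted p = 0.248). In control cells it had 133 and 127 CPM in the late gate, against 104 and 111 CPM in the early gate, a log2 fold change of 0.28 (SE 0.11, adjusted p = 0.317). Late libraries were above early ones in both, by a margin that did not pass the test.

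Klf3 (chromosome 5, 64803523 to 64830129, plus strand) encodes a repressor of the KLF family that binds the co-repressor CtBP. It had 92.3 and 67.7 CPM in late sgStat5 cells, against 30.1 and 26.3 CPM in early sgStat5 cells. Its levels in control cells were 82.9 and 58.1 CPM in the late gate, against 43.6 and 28.6 CPM in the early gate. Late libraries were above early ones in both, and in each of the 4 groups replicate 1 was the higher. The log2 fold change was 1.51 in sgStat5 cells (SE 0.27, edgeR adjusted p = 0.0590) and 0.97 in control cells (SE 0.27, adjusted p = 0.237), and with the replicate block Klf3 rose in both (1.49, SE 0.12, adjusted p = 0.000174 and 0.97, SE 0.12, adjusted p = 0.0026). Klf2 (chromosome 8, 72319062 to 72321654, plus strand) had 1.81 and 1.22 CPM in late sgStat5 cells, against 2.25 and 2.55 CPM in early sgStat5 cells. In control cells it had 3.18 and 2.10 CPM in the late gate, against 1.73 and 2.67 CPM in the early gate. It was the 1 gene of the 9 whose late sgStat5 libraries lay below the early ones, with a log2 fold change of -0.66 (SE 0.48, edgeR adjusted p = 0.435), and in control cells the gates overlapped.

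Btg1 and Btg2 encode paralogous adaptors that bring the CCR4-NOT deadenylase to messenger RNAs and slow division. Btg1 (chromosome 10, 96617001 to 96622811, plus strand) had 251 and 166 CPM in late sgStat5 cells, against 83.3 and 73.5 CPM in early sgStat5 cells. Its levels in control cells were 134 and 64.2 CPM in the late gate, against 61.0 and 51.7 CPM in the early gate. Late was above early in both, but the 2 late control libraries differed from each other by more than the second of them differed from the early ones. With the replicate block Btg1 rose in sgStat5 cells (1.38, SE 0.18, adjusted p = 0.00149) and in control cells (0.75, SE 0.18, adjusted p = 0.0345), and without it neither passed (edgeR adjusted p = 0.0851 and 0.330).

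Btg2 (chromosome 1, 134074865 to 134079155, minus strand), which is also a target of p53, had 79.5 and 37.8 CPM in late sgStat5 cells, against 20.4 and 18.8 CPM in early sgStat5 cells. In control cells it had 41.6 and 22.0 CPM in the late gate, against 17.1 and 16.4 CPM in the early gate. As with Btg1, late libraries were above early ones and replicate 1 was the higher of each late pair. With the replicate block Btg2 rose 2.82-fold in sgStat5 cells (SE 0.25 on the log2 scale, adjusted p = 0.00383; without it, 0.0894), and in control cells it did not pass (0.85, SE 0.25, adjusted p = 0.0582 with the block and 0.336 without).

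Bach2 (chromosome 4, 32417435 to 32586108, plus strand) encodes a repressor that competes at AP-1-like sites and holds back effector programmes. It had 27.8 and 25.7 CPM in late sgStat5 cells, against 9.98 and 8.27 CPM in early sgStat5 cells. Its levels in control cells were 30.2 and 22.2 CPM in the late gate, against 14.1 and 9.32 CPM in the early gate. The gates did not overlap in either. Bach2 rose 2.94-fold in sgStat5 cells (log2 fold change 1.55, SE 0.25, edgeR adjusted p = 0.0486), and with the replicate block it also rose in control cells (1.17, SE 0.16, adjusted p = 0.00454; without it, 0.189). The gene shares 537 of 9205 exonic bases with the antisense gene Bach2os, which had 6 to 36 reads per library, and Foxo1 and Klf3 share 674 of 8665 and 404 of 11243 with antisense or opposite-strand genes. The library kit named in the labels does not keep strand, so reads there cannot be assigned.

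Counted together, 2 of the 9 genes rose in late sgStat5 cells over early sgStat5 cells, Foxo1 and Bach2, where 0.973% of all tested genes were called, 0.661% higher and 0.312% lower. Both calls were lost when any early library or either late sgStat5 library was left out, with adjusted p of 0.0704 to 0.271 for Foxo1 and 0.0806 to 0.280 for Bach2, and also when the 2 groups were fitted alone (0.0563 for Foxo1 and 0.0567 for Bach2). With the replicate block 5 of 9 rose, where 22.8% were called, 11.3% higher and 11.5% lower, and DESeq2 called the same number, 5, where it called 12.7% of all genes. In control cells 0 of the 9 passed edgeR without the block, where 0.0145% of all genes were called. With the block 4 rose, Foxo1, Klf3, Btg1 and Bach2, where 10.9% were called, 6.64% higher and 4.3% lower. At an unadjusted p under 0.05 the control comparison held 6 of the 9, where 14.9% of all genes were under it, and DESeq2 called 3, where it called 4.86% of all genes. The median log2 fold change of the 9 was 1.41 in sgStat5 cells and 0.81 in control cells, against 0.03 over all genes in each. Late and early libraries did not overlap for 9 of 9 genes in sgStat5 cells, 8 of them higher, where 56.2% of all genes did not overlap, 28.1% higher and 28.1% lower. In control cells 7 of 9 did not overlap, all 7 higher, where 48.8% of all genes did not, 24.6% higher and 24.2% lower. Leaving out any 1 library with the block, a check chosen after seeing the data, kept all 5 calls in sgStat5 cells. In control cells Foxo1 and Btg1 were lost without early control replicate 1 (adjusted p up to 0.156 and 0.350 over the libraries left out) or without late control replicate 1, and Bach2 without late control replicate 1 (0.0621).

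**Figure D3:**
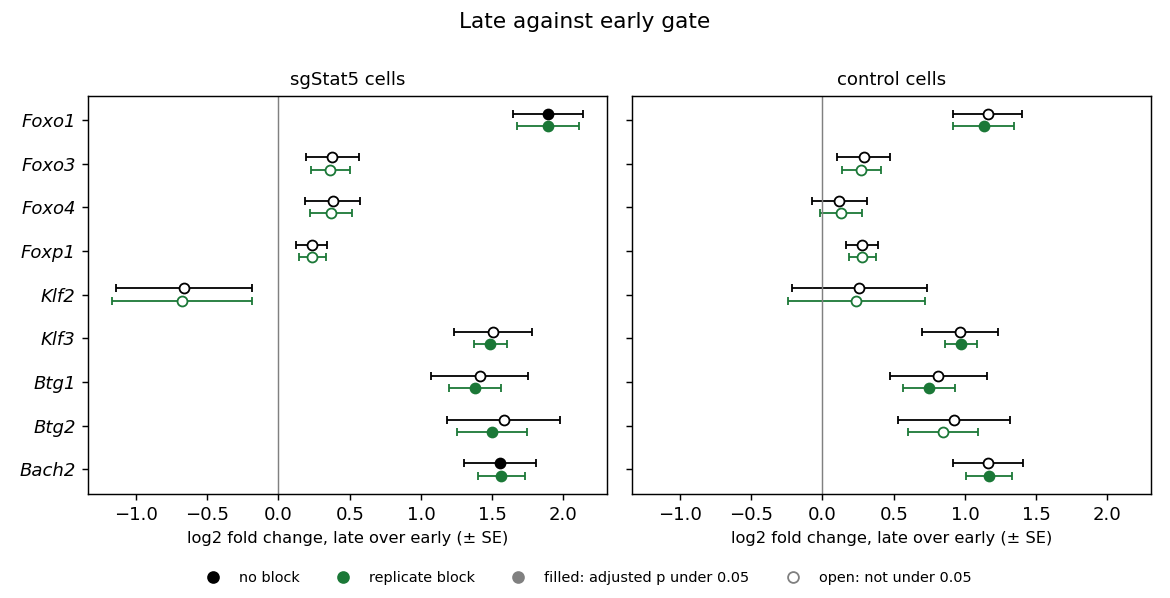
Log2 fold change of late over early cells (horizontal axis, ± SE) for the 9 genes, in sgStat5 cells and in control cells, from edgeR without a block (black) and with the replicate block (green); filled points have an adjusted p under 0.05. Foxo1, Klf3, Btg1, Btg2 and Bach2 lie to the right in both panels, and Klf2 lies at -0.66 in sgStat5 cells.

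Other measures were set against the gate. Bcl11b, whose reporter defines it, had 797 and 415 CPM in late sgStat5 cells, against 132 and 70.1 CPM in early sgStat5 cells. Its levels in control cells were 542 and 219 CPM in the late gate, against 132 and 45.6 CPM in the early gate, so replicate 1 was the higher in each group, as for Klf3, Btg1, Btg2 and Bach2. The 11 stromal and endothelial markers summed to 419 and 609 CPM in late sgStat5 cells, 371 and 629 CPM in late control cells, 293 and 429 CPM in early sgStat5 cells and 297 and 459 CPM in early control cells. Within each replicate number the late sum was the higher, but the gates overlapped in both kinds of cells, and replicate 2 was the higher in each group. Pecam1 and Pdgfrb were its largest parts, with means of 162 and 90.5 CPM over the 8 libraries. Of the defining genes, Lum was at 0 in all libraries and Dcn, Cdh5 and Kdr had 16 reads or fewer. Fn1, Col1a2, Col1a1, Col3a1 and Sparc had means of 55.6, 43.4, 39.0, 31.2 and 16.8 CPM. The collagen gene Col1a1 had 29.2 and 76.3 CPM in late sgStat5 cells, against 0 and 36.2 CPM in early sgStat5 cells. In control cells Col1a1 had 28.9 and 83.0 CPM in the late gate, against 7.99 and 50.3 CPM in the early gate. Of the 7 stromal and endothelial markers tested, 6 had a positive late over early log2 fold change in each kind of cell, and 0 passed without the block. Of the 11 myeloid markers Mpo and Itgax had the highest means, 17.1 and 10.9 CPM over the 8 libraries. Among the 9 tested, 1 had a positive late over early log2 fold change in sgStat5 cells and 3 in control cells. The sum of all 11 was lower in late sgStat5 cells, at 13.8 to 29.5 CPM, against 75.2 to 97.1 CPM in early sgStat5 cells. This sum was 10.99 to 20.4 CPM in late control cells, against 52.1 to 52.4 CPM in early control cells. Likewise the 8 mast cell, megakaryocyte and erythroid markers summed to 561 to 567 CPM in late sgStat5 cells and 346 to 441 CPM in late control cells, against 1352 to 1753 CPM in early sgStat5 cells and 1042 to 1252 CPM in early control cells. Most of that sum was Cpa3, Hbb-bt and Itga2b, with means of 424, 331 and 146 CPM over the 8 libraries. Mcpt8, Gata1 and Gata2 had means of 11.3, 1.41 and 0.851 CPM, and Hba-a1 and Pf4 had 10 and 5 reads over all libraries. The part of these measures in the differences of the 9 genes was not tested, and in bulk RNA fewer cells of a type and less RNA per cell cannot be told apart.

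Under the Stat5 guides Btg1 and Foxo1 were higher in late cells, a difference that passed the test with the replicate block, and in early cells none of the 9 genes passed. Btg1 had 251 and 166 CPM in late sgStat5 cells, against 134 and 64.2 CPM in late control cells, so the lower sgStat5 library was above the higher control. Within replicates the log2 differences were 0.90 and 1.37. With the replicate block Btg1 rose 2.16-fold (log2 fold change 1.11, SE 0.18, adjusted p = 0.0059), and without it the fold was 2.11 and did not pass (edgeR adjusted p = 0.254). Without late sgStat5 replicate 1 the blocked adjusted p was 0.0665.

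Foxo1 had 35.1 and 27.7 CPM in late sgStat5 cells, against 20.0 and 14.8 CPM in late control cells, again with no overlap. Within replicates the log2 differences were 0.79 and 0.88. With the replicate block Foxo1 rose (log2 fold change 0.85, SE 0.21, adjusted p = 0.0368), and without it the same log2 fold change had an edgeR adjusted p of 0.190. The blocked call was lost when any of the 4 late libraries was left out, with an adjusted p of up to 0.279. Bcl11b, the gate gene, was also higher in late sgStat5 cells in both replicates and rose with the block (0.74, SE 0.14, adjusted p = 0.0106), and whether the position of cells within the late gate bears on Foxo1 and Btg1 was not tested. Of the 12 T progenitor markers, Bcl11b included, 5 rose and 2 fell in late sgStat5 cells with the block. Il2ra, which encodes CD25, fell without the block too (-0.89, SE 0.14, edgeR adjusted p = 0.0352). Thy1 fell with the block alone (-0.49, SE 0.08, adjusted p = 0.00695). In early sgStat5 cells 2 fell with the block, Il2ra (-0.55, SE 0.11, adjusted p = 0.0362) and Thy1 (-0.99, SE 0.08, adjusted p = 0.000553), and 0 rose. The 7 NK and innate lymphoid markers summed to 1737 and 2012 CPM in late sgStat5 cells, against 884 and 1436 CPM in late control cells. Almost all of it was Gzma, a granzyme gene, with 1839 ± 186 CPM in late sgStat5 cells and 1142 ± 379 CPM in late control cells (SD, n = 2 each). Ncr1, Eomes, Tbx21 and Klrb1c had at most 1.48 CPM in any library. Zbtb16 had 10.1 to 70.7 CPM over the 8 libraries, with a log2 fold change of 0.97 in the late gate. Klrd1 had at most 9.26 CPM and a log2 fold change of -0.46 there. The part of these markers in the 2 calls was not tested.

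The other 7 genes did not pass in the late gate with or without the block. Btg2 came nearest, with 79.5 and 37.8 CPM in late sgStat5 cells, against 41.6 and 22.0 CPM in late control cells, a log2 fold change of 0.87 with the block (SE 0.24, adjusted p = 0.0599) and 0.88 without (SE 0.39, 0.417). It was higher in both replicates, by 0.93 and 0.77, but the groups overlapped. Klf2 had 1.81 and 1.22 CPM in late sgStat5 cells, against 3.18 and 2.10 CPM in late control cells, a log2 fold change of -0.80 (SE 0.48, edgeR adjusted p = 0.572). These 4 libraries held 34 to 83 reads of Klf2. Foxo4 differed by 0.34 (SE 0.19), Klf3 by 0.18 (SE 0.26), Foxo3 by 0.16 (SE 0.19), Bach2 by 0.03 (SE 0.24) and Foxp1 by -0.11 (SE 0.11), with edgeR adjusted p-values of 0.548 to 0.984.

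In the early gate none of the 9 genes passed with edgeR, with or without the block, and none by DESeq2, which called 1.79% of all genes. At an unadjusted p under 0.05 there were 0 of the 9 without the block, where 6.44% of all genes were under it, and 2 with it, Klf3 and Btg1, where 12.8% were. Btg1 had the largest difference, with 83.3 and 73.5 CPM in early sgStat5 cells, against 61.0 and 51.7 CPM in early control cells. Its log2 fold change was 0.48 (SE 0.34, edgeR adjusted p = 0.950; 0.308 with the block), and the groups did not overlap. Foxo1 had 9.44 and 7.50 CPM in early sgStat5 cells, against 6.73 and 8.84 CPM in early control cells, which overlap (0.12, SE 0.24). Bach2 had 9.98 and 8.27 CPM in early sgStat5 cells, against 14.1 and 9.32 CPM in early control cells (-0.36, SE 0.25, adjusted p = 0.947), and Klf3 had 30.1 and 26.3 CPM in early sgStat5 cells, against 43.6 and 28.6 CPM in early control cells (-0.36, SE 0.27, adjusted p = 0.955). Both were lower in sgStat5 cells in each replicate pair, with overlap between the groups. The remaining 5 genes differed by -0.06 to 0.22.

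Counted together, 0 of the 9 genes were called in the late gate, where 1.71% of all genes were, 0.755% higher and 0.951% lower, and 2 rose with the replicate block, where 8.22% were called, 3.72% higher and 4.49% lower. At an unadjusted p under 0.05 there were 2, where 12.4% of all genes were under it, and DESeq2 called 1, Btg1, where it called 4.75% of all genes. In the early gate 0 were called, where 0.269% of all genes were, 0.123% higher and 0.145% lower, and 0 with the block, where 2.33% were, 1% higher and 1.33% lower. The median log2 fold change of the 9 was 0.18 in the late gate and 0.07 in the early gate, against -0.02 and 0.00 over all genes. The groups did not overlap for 5 of 9 genes in the late gate, 3 higher and 2 lower, where 38.9% of all genes did not, 18.1% higher and 20.8% lower. In the early gate they did not overlap for 2 of 9, both higher, where 38.1% of all genes did not, 18.7% higher and 19.4% lower.

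**Figure D4:**
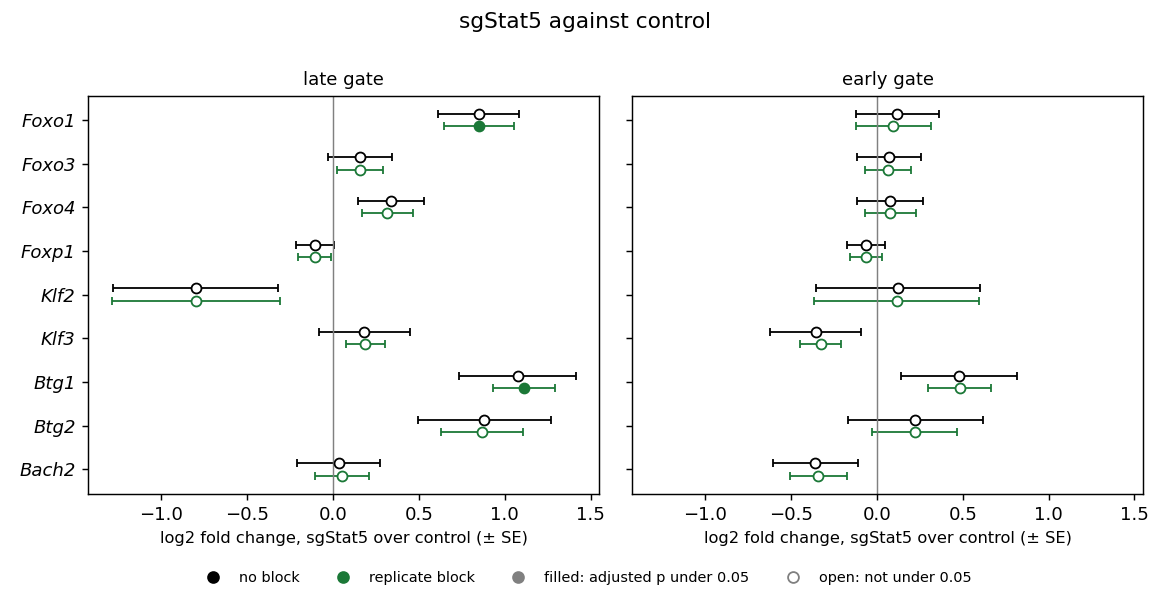
Log2 fold change of sgStat5 over control cells (horizontal axis, ± SE) for the 9 genes in the late and the early gate, from edgeR without a block (black) and with the replicate block (green); filled points have an adjusted p under 0.05. In the late gate Btg1 and Foxo1 are filled with the block at 1.11 and 0.85, and in the early gate no point is filled.

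Whether the guides had another effect in late than in early cells was tested as the difference of the 2 effects, which is also the difference of the 2 late over early changes. The difference was 0.73 for Foxo1 (SE 0.34), 0.66 for Btg2 (SE 0.55), 0.60 for Btg1 (SE 0.48), 0.54 for Klf3 (SE 0.37) and 0.39 for Bach2 (SE 0.35). For Klf2 it was -0.92 (SE 0.67), and for Foxo3, Foxo4 and Foxp1 it lay between -0.04 and 0.26. None of the 9 passed with edgeR (adjusted p = 0.9998 for each), nor with the block, where the smallest adjusted p was 0.678 for Klf3, nor by DESeq2. Over all genes 0 were called by edgeR, 0%, while 302 (2.19%) had an unadjusted p under 0.05, 0 of the 9 among them. With the block 814 (5.91%) did, 3 of the 9 among them, Foxo1, Klf3 and Btg1, and DESeq2 called 0.0145% of all genes. The call of Foxo1 and Btg1 in the late gate alone is therefore not shown to differ from the early gate.

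The lists around the 9 genes were counted in the same fits, which called 1.71% of all genes in the late gate and 0.269% in the early gate without the block, and 8.22% and 2.33% with it. Of 23 genes of PI3K and AKT signalling, the pathway that keeps FOXO proteins out of the nucleus, 1 fell and 0 rose in late sgStat5 cells without the block, and 5 fell and 2 rose with it. Sgk3, a kinase related to AKT that also acts downstream of PI3K, had 25.8 ± 2.24 CPM in late sgStat5 cells and 63.7 ± 6.28 CPM in late control cells (SD, n = 2 each; log2 fold change -1.30, SE 0.13, edgeR adjusted p = 0.00596). With the block Inpp4b, a lipid phosphatase, fell by 1.23 (SE 0.24, adjusted p = 0.0148) and Pik3r5, a regulatory subunit of PI3K gamma, fell by 0.67 (SE 0.14, adjusted p = 0.0195). Pik3ip1, an inhibitor of PI3K, rose by 0.74 (SE 0.12, adjusted p = 0.0062). In early sgStat5 cells 0 passed without the block, and with it Inpp4b fell by 1.39 (SE 0.25, adjusted p = 0.0221) and Pik3r5 by 0.89 (SE 0.15, adjusted p = 0.0165). The list's median was -0.07 in the late and -0.06 in the early gate.

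Of 20 genes known as FOXO targets, 2 rose and 0 fell in late sgStat5 cells, and with the block 4 rose and 2 fell. Il7r, the IL-7 receptor chain, had 240 and 236 CPM in late sgStat5 cells, against 82.8 and 81.6 CPM in late control cells (1.53, SE 0.15, edgeR adjusted p = 0.00596). It also rose in early sgStat5 cells, with 154 and 112 CPM, against 47.4 and 41.6 CPM in early control cells (1.58, SE 0.15, adjusted p = 0.0163). Bcl6, a repressor known to be held down by STAT5 as well as raised by FOXO proteins, had 19.1 ± 3.69 CPM in late sgStat5 cells and 2.73 ± 0.561 CPM in late control cells (SD, n = 2 each; 2.80, SE 0.32, adjusted p = 0.00904). Rag1, the recombinase, rose with the block alone (1.04, SE 0.17, adjusted p = 0.00609), with overlapping groups, and Bnip3, a mitophagy gene, fell with it (-1.29, SE 0.29, adjusted p = 0.0262). The list's median was 0.40 in the late gate and 0.17 in the early gate, where 1 rose without the block and 2 with it, Il7r and Bcl6.

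Of 7 homing and trafficking receptors, among them the KLF2 target S1pr1, 6 were tested and 0 passed in either gate. With the block Itgb7, an integrin chain, fell in late sgStat5 cells (-0.48, SE 0.12, adjusted p = 0.0489), and the list's median was -0.24 in the late and 0.11 in the early gate. Of 17 tested genes of the other BTG and TOB proteins, the CCR4-NOT and PAN deadenylases and the poly(A)-binding protein, 0 passed in either gate. With the block Pan2, a catalytic deadenylase subunit, rose (0.58, SE 0.14, adjusted p = 0.0354) and Pabpc1, the poly(A)-binding protein, fell (-0.31, SE 0.05, adjusted p = 0.0055) in late sgStat5 cells, and the medians were -0.03 and -0.08. Another list of 8 genes held Bach1, small MAF genes whose proteins pair with BACH proteins, NFE2L factors that compete with them, Prdm1 and Hmox1. Of these, 0 passed without the block. Prdm1, chosen here after its values were seen, had the largest log2 fold change of the list, 2.00 in the late gate and 0.49 in the early gate. It passed in neither gate with or without the block. Bach1 rose with it in late sgStat5 cells (0.54, SE 0.12, adjusted p = 0.0241), and the medians were 0.41 and 0.09.

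Of 18 further genes linked to quiescence, 1 rose in late sgStat5 cells, Mxd1, which antagonises MYC, with 33.6 ± 4.17 CPM in late sgStat5 cells and 14.2 ± 2.07 CPM in late control cells (SD, n = 2 each; 1.24, SE 0.20, edgeR adjusted p = 0.0338). With the block Cdkn1a, a cell cycle inhibitor, fell (-1.07, SE 0.21, adjusted p = 0.0167), in the direction opposite to Mxd1, and 0 passed in the early gate in either fit. Of 14 tested paralogs of the FOX and KLF families, 0 passed without the block, and in the late gate Foxp4 rose (0.43, SE 0.08, adjusted p = 0.0125) and Foxk2 fell (-0.35, SE 0.08, adjusted p = 0.0238) with it. The medians of these lists were 0.11 and -0.04 in the late gate and -0.04 and -0.19 in the early gate.

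Of 20 genes of DNA replication and mitosis, 0 passed in either gate without the block and 1 fell with it in late sgStat5 cells, Mcm3, a subunit of the replicative helicase (-0.27, SE 0.06, adjusted p = 0.0303). The median was -0.16 in the late gate and 0.00 in the early gate. Their summed level was 6564 and 6718 CPM in late sgStat5 cells, against 7329 to 7459 CPM in late control cells, and 6231 to 6531 CPM in early sgStat5 cells, against 6114 to 6751 CPM in early control cells. Division genes were thus abundant in every group in which the 9 quiescence genes were measured.

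**Figure D5:**
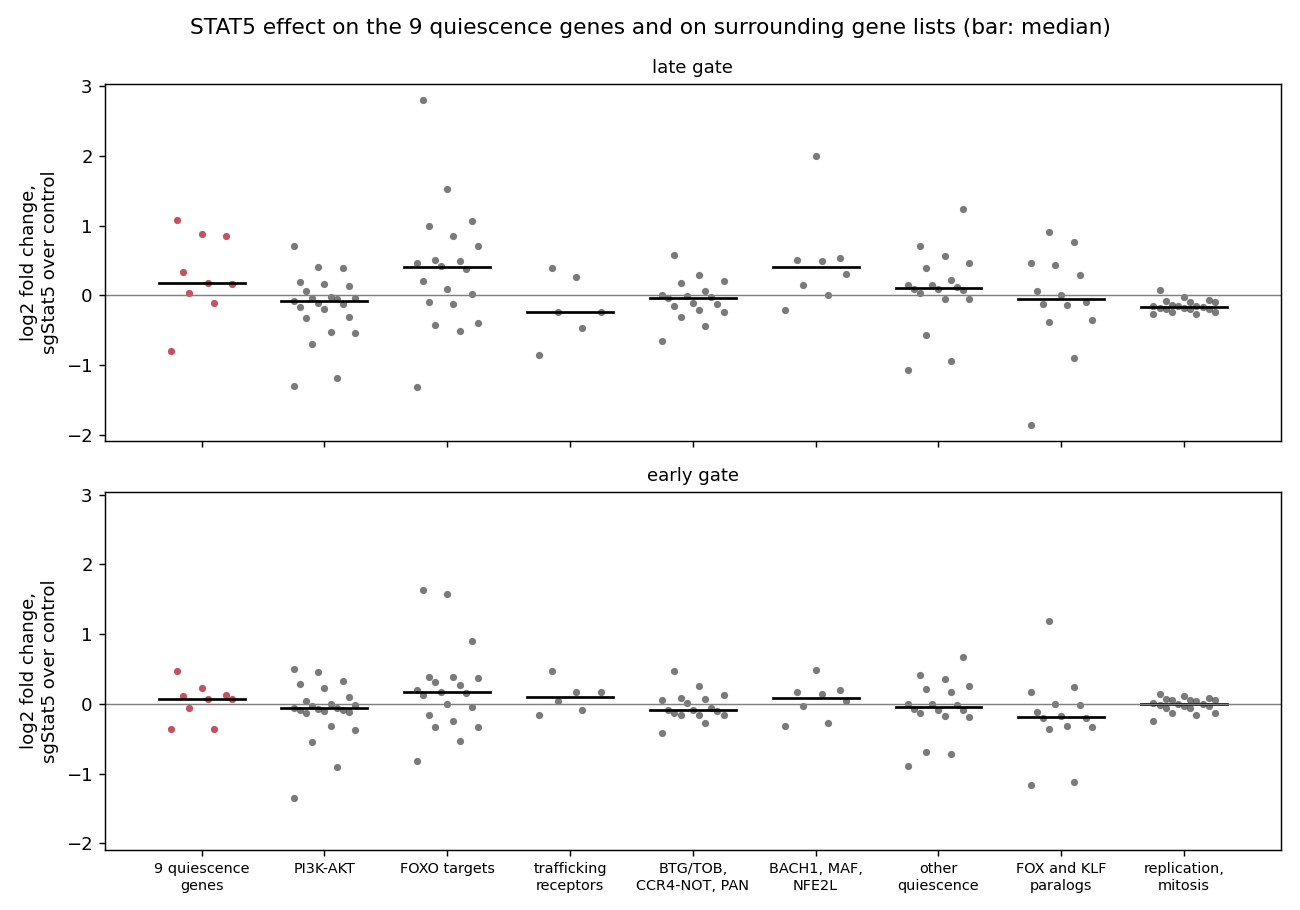
Log2 fold change of sgStat5 over control cells (vertical axis) for each tested gene of the 9 quiescence genes (red) and the surrounding lists (grey), in the late and the early gate; bars are medians. In the late gate the 9 genes spread between -0.80 and 1.08, and the replication and mitosis genes lie together with a median of -0.16.

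The same lists were counted between the gates, where with the block 22.8% of all genes were called in sgStat5 cells and 10.9% in control cells. Of the 18 further quiescence genes 1 was higher in late than in early sgStat5 cells without the block, Slfn2 (2.06, edgeR adjusted p = 0.0486), which keeps T cells at rest in mice, and with the block 9 were higher and 0 lower. In control cells 6 were higher and 0 lower with the block. Of the 20 FOXO targets 8 were higher and 2 lower in late sgStat5 cells with the block, and 6 and 0 in late control cells, and 0 passed without it. Rag1 and Rag2, chosen here after their values were seen, were among them in both (Rag1 2.75, SE 0.18, adjusted p = 8.73e-05 in sgStat5 cells and 1.83, SE 0.18, adjusted p = 0.00111 in control cells). Of the 6 tested trafficking genes 2 rose and 2 fell in late sgStat5 cells and 3 rose and 1 fell in late control cells, all with the block alone. Of the 23 PI3K and AKT genes 4 rose and 3 fell in late sgStat5 cells and 6 rose and 2 fell in late control cells with the block, and 0 passed without it. In the BTG, TOB and deadenylase list Pabpc1 fell in late sgStat5 cells without the block (-0.42, edgeR adjusted p = 0.0486). With the block 4 of these genes rose and 1 fell in sgStat5 cells, and 2 rose and 1 fell in control cells. For the list with Bach1, the MAF and NFE2L genes, Prdm1 and Hmox1 the counts with the block were 2 up and 1 down in sgStat5 cells and 0 in control cells. For the FOX and KLF paralogs they were 1 up and 2 down in sgStat5 cells and 1 up in control cells. Of the replication and mitosis genes 3 rose and 5 fell in late sgStat5 cells and 5 rose and 1 fell in late control cells with the block.

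Across the 8 libraries Ptprc (r = 0.99) and Cep95 (r = 0.99) were among the genes whose log2 level was most like that of Foxo1, out of 8998 genes with a mean of at least 10 CPM. Btg1 was most like Agfg1, Bach1 and Mafk (r = 0.99 each), and Bach2 most like Clcn3, B4galt1 (r = 0.99 each) and Lipg (r = 0.98). Klf2 was most like Cdc40 (r = 0.93), Elof1 (r = 0.91) and Atad1 (r = 0.91). The 8 libraries fall into 4 groups and share replicate numbers, so these values describe a common pattern over the groups and carry no test.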

How the data were processed

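Bulk RNA of 8 libraries was sequenced. The authors deposited counts of reads per gene and, in a second table, FPKM per gene, both given per the file headers for mm10 transcripts. Per the submitters' processing notes the tools were bcl2fastq 1.8.4, STAR 2.4.0 and RSEM 1.2.25 on GRCm38/mm10. The library kit in the labels does not keep strand, and no header mentions a stranded setting.

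Gene counts went into edgeR 4.0.16 (R 4.3.3; filterByExpr, TMM scaling, quasi-likelihood test, two-sided, all 8 libraries in 1 fit, Benjamini-Hochberg adjustment over all 13775 genes kept, threshold 0.05). CPM values use the TMM-scaled library sizes. Every fold change is the first-named group over the second. Same-numbered libraries deviated together in all 6 pairs of groups (r = 0.49 to 0.68 over genes), so the numbers were taken to pair the samples on this evidence from the data, and a fit with the replicate number as a block is given where it changes a call. It leaves 3 residual degrees of freedom, against 4 without it. Alternatives were RLE scaling, 2 other filters, DESeq2 1.42.0, limma 3.58.1 on log2(FPKM + 0.1) and log2(FPKM + 1), the compared groups alone and each library left out. The scripts were tested on simulated data.

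The 9 genes, the lists and the markers were chosen with earlier results of these data known. From the lists, at most the 4 genes with the largest change per comparison and fit among those called in a STAT5 comparison were eligible to be named, and genes named for the late over early comparison alone were chosen after their values were seen. The counting error of a gene's reads limits Klf2 in particular, since at its mean reads per library in each group that error was 11.6% to 16.3%. Some items are not reported here.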

Additional observations from a re-analysis of the deposited data

Results flagged for a closer look

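Klf3 was the 1 gene of the 9 whose STAT5 effect had opposite signs in the 2 gates in every replicate pair. In the late gate it was higher in sgStat5 cells in both pairs, by 0.15 and 0.22 on the log2 scale, and in the early gate lower in both, by 0.53 and 0.12. The late minus early difference of the effects was 0.54 (SE 0.37), and its test did not pass (edgeR adjusted p = 0.9998, and 0.678 with the replicate block). The share of all tested genes with such signs is not given here, so the pattern does not mark Klf3 out.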

How the results depend on the processing

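The number of the 9 genes called depended on the replicate block more than on scaling. With the block it was 2 for STAT5 in the late gate (without it 0), 5 for late over early in sgStat5 cells (without it 2) and 4 for late over early in control cells (without it 0), and it stayed at 0 for STAT5 in the early gate and for the difference of the effects. DESeq2 called 1, 5 and 3 in the first 3 comparisons. For late over early in sgStat5 cells the count was 3 with a filter of 5 CPM in 2 libraries, 5 with no filter, 1 with limma on log2(FPKM + 0.1) and 0 with the 2 compared groups alone, and with each library left out in turn it ran from 0 to 5. It was 0 without any early or late sgStat5 library or any early control library, 4 without late control replicate 1 and 5 without late control replicate 2. In the block fits with each library left out, added after seeing the data, the count ran from 0 to 3 for STAT5 in the late gate, from 1 to 5 for late over early in control cells and stayed at 5 in sgStat5 cells. The cause of these shifts was not tested.

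Signs changed only for values that passed no test. The Foxp1 difference of effects was 0.016 and 0.014 with limma on FPKM. With a library left out in turn and no block, STAT5 effects in the early gate ran from -0.0725 to 0.335 for Foxo1, -0.0558 to 0.213 for Foxo4, -0.220 to 0.0775 for Foxp1 and -0.162 to 0.474 for Klf2, and in the late gate from -0.158 to 0.255 for Bach2, -0.0929 to 0.375 for Foxo3 and -0.0584 to 0.442 for Klf3. Differences of the effects ran from -0.163 to 0.305 for Foxo3, -0.00632 to 0.490 for Foxo4 and -0.184 to 0.115 for Foxp1, and late over early in control cells from -0.0139 to 0.254 for Foxo4 and -0.0595 to 0.604 for Klf2. With the replicate block and a library left out, signs of STAT5 effects turned in the early gate for Foxo1 (-0.253), Foxo3 (-0.117), Klf2 (-0.297) and Btg2 (-0.0803) without early control replicate 1, for Foxp1 (0.0679) without early sgStat5 replicate 1, and for Foxo3 (-0.00683), Klf2 (-0.0696) and Btg2 (-0.0852) without early sgStat5 replicate 2. In the late gate they turned for Bach2 without late control replicate 2 (-0.00241) or late sgStat5 replicate 2 (-0.116) and for Foxo3 without late sgStat5 replicate 1 (-0.0231). Differences of the effects turned for Foxo3 without early control replicate 2 (-0.107) or late sgStat5 replicate 1 (-0.0889), and for Foxp1 without late control replicate 1 (0.0550) or early sgStat5 replicate 2 (0.0900). Late over early in control cells turned for Klf2 without early control replicate 1 (-0.205) or late control replicate 1 (-0.105), and for Foxo4 without late control replicate 2 (-0.0476). Where a left-out library leaves a group with 1 sample, that sample is assumed to vary like the other groups. With 2 libraries a group, the spread limits what could be detected, and Klf2 had the fewest reads of the 9.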
